A study of Homo sapiens with 6 samples.

Results

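Interferon-stimulated genes were compared between 2 subclones of DLD-1, a human colorectal cancer cell line. The members are 40 genes given by symbol as a gene module, among them the IFIT, IFITM and OAS families, the ISG15 conjugation system, antiviral effectors, transcription factors and chemokines. A value was found for 39 of them among the 19775 genes measured on the arrays. The remaining gene, STAT2, is not analysed here. The rule names the genes, which were chosen with earlier results of these data known, and each gene is read from its brightest probe set that carries a single symbol.

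Biotin-labelled RNA from 6 untreated samples, 3 of the subclone named DLD-1Δα-Cat and 3 of the subclone named DLD-1α-Cat, was read on Affymetrix arrays, on which a gene is read by 1 or more groups of short probes, called probe sets. All 6 samples were kept for 96 h inside a gel of collagen type I at 1 mg/ml. The labels give no genotype beyond the names, do not spell out Δα-Cat, and call each sample only a subclone of DLD-1, so a difference between these groups is a difference between 2 derived populations of 1 line. Nothing in the labels says that replicates came from separate cultures, so the p-values cover only the spread among these arrays, and that spread may be technical.

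Interferons are secreted proteins that cells release on sensing viral nucleic acid. They bind paired receptors whose Janus kinases activate a complex of STAT proteins and IRF9, and this complex binds interferon-stimulated response elements in promoters. The genes so induced block viral entry, translation and replication, degrade RNA and reinforce sensing. Epithelial cells of the gut respond to type I and type III interferons, and many tumour lines keep a low level of these genes without added interferon.

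Values are on the log2 scale of RMA, a method that corrects, normalizes and summarises probe signals, so a difference of 1 is a doubling. Each difference is the DLD-1Δα-Cat mean less the DLD-1α-Cat mean, and a gene is said to have risen or fallen where the Benjamini-Hochberg adjusted p over all genes, from limma's moderated linear model, was under 0.05. In bulk RNA, fewer cells expressing a gene and less of its RNA per cell cannot be told apart. CTNNA1, which encodes the α-catenin of epithelial cells, read 11.38, 11.30 and 11.01 on the DLD-1Δα-Cat arrays and 12.73, 12.74 and 12.79 on the DLD-1α-Cat arrays, and CTNNA1 fell by 1.52 (limma adjusted p = 0.000838). The 7 epithelial markers averaged 12.42 to 12.60 and 12.48 to 12.55 per array in DLD-1Δα-Cat and DLD-1α-Cat, and 0 of the 7 passed limma's test, with 0 at an unadjusted p under 0.05. Of the leukocyte and plasmacytoid dendritic cell markers, 11 of 13 had a value, and their mean per array was 4.83 to 5.01 against 4.98 to 5.30. None of these 11 had a mean over the 6 arrays above the median level of all genes, 7.82, and 1 of them, CD14, fell by 1.17 (limma adjusted p = 0.00517). The 7 fibroblast markers averaged 4.66 to 4.70 against 4.56 to 4.90.

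Promoter sequences show which members carry the response element in its simplest spelling, searched on both strands. That spelling is GAAA, any 2 bases and GAAA again, and it is called the GAAA repeat in what follows. RefSeq windows (GRCh38.p14) of 300 bases, from 250 before to 50 after a gene's start, were found for 31 of the 39 members, in 40 windows. The GAAA repeat stood in 22 of these 31 genes (71.0%), against 4.38% of the 27305 genes with a window, or in 65.0% of the member windows against 3.57% of all windows. TTCNNNGAA, the spelling of the STAT dimer site, was in 11 of the 31 (35.5%) against 9.38% of all genes with a window. Matches of the GAAA repeat may overlap one another. The 250 bases before the start are printed for IFI35, the member that fell, for RSAD2 and SAMD9, which rose, and for ISG15, whose level differed little, with matches to either motif in capitals. ISG15 was added after its values were seen. IFI35 (chr17:43006534-43006783, plus strand) has 1 TTCNNNGAA match, beginning 22 bases before the start. RSAD2 (chr2:6877527-6877776, plus strand) has 1 GAAA repeat on the opposite strand, beginning 145 bases before the start, and its other listed start has none. SAMD9 (chr7:93117980-93118229, minus strand) has 1 match beginning 136 bases before the start. ISG15 (chr1:1013247-1013496, plus strand) has 2 overlapping matches, beginning 113 and 107 bases before it.
IFI35: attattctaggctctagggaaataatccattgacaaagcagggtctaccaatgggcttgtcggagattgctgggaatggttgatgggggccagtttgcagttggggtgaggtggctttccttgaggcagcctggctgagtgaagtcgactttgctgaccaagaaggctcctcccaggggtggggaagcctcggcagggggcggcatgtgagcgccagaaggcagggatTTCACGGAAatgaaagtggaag
RSAD2: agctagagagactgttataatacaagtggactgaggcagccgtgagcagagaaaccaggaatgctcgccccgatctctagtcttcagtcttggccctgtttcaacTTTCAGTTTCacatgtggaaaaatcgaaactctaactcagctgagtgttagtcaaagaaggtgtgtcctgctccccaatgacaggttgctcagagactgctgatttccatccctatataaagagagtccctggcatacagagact
SAMD9: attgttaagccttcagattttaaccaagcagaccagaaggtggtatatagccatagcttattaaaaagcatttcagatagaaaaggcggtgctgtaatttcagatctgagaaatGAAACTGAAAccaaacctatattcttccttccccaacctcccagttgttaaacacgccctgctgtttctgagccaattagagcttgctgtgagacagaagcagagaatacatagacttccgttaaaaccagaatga
ISG15: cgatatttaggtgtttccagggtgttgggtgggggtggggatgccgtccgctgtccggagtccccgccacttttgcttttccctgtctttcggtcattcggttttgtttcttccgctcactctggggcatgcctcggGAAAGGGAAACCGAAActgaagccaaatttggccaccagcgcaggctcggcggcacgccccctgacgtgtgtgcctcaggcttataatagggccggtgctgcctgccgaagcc

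UBE2L6, which also rose, has neither motif in its 2 windows. The fifth called member, OAS2, was not matched. The 22 members with the GAAA repeat had a median difference of -0.0018 and 2 of them passed the test. The 9 without it had a median of 0.015 and 2 of them passed. A match is only an occurrence of these letters, and no match says nothing about binding elsewhere.

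Most interferon-stimulated genes did not pass the test. In DLD-1Δα-Cat, 4 members rose (RSAD2, OAS2, SAMD9 and UBE2L6), 1 fell (IFI35) and 34 did not pass the test. The share called was 12.8% of the members against 5.52% of all genes tested, with 10.3% against 3.84% in the higher and 2.56% against 1.67% in the lower direction. The median difference of the members was 0.015 and that of all genes was -0.030. Differences were above 0 for 21 members and below 0 for 18, and ran from -1.78 to 1.18. The arrays of the groups did not overlap for 15 members (38.5%), 11 higher and 4 lower in DLD-1Δα-Cat, against 27.2% of all genes (14.1% higher and 13.1% lower). At an unadjusted p under 0.05 there were 15 members (38.5%), against 20.8% of all genes.

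**Figure D1:**
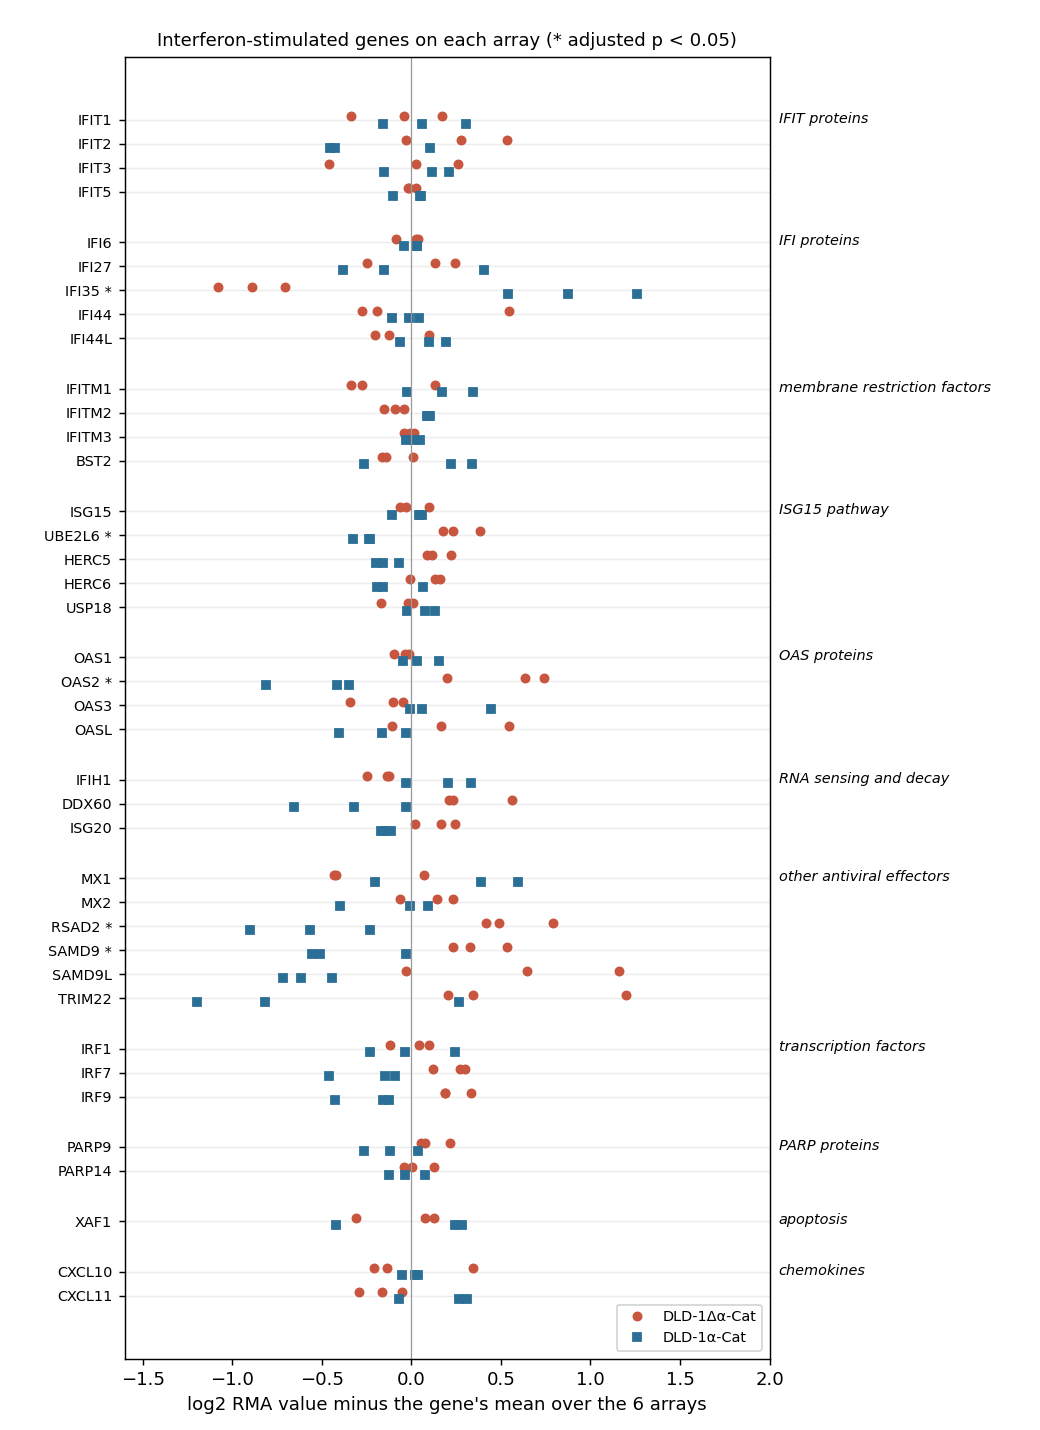
Each row is 1 interferon-stimulated gene, grouped by role, and the horizontal axis gives the log2 RMA value of an array minus the mean of that gene over the 6 arrays. Circles are the 3 DLD-1Δα-Cat arrays, squares are the 3 DLD-1α-Cat arrays, and an asterisk marks an adjusted p under 0.05. IFI35 has all its circles to the left of its squares, and OAS2, RSAD2, SAMD9 and UBE2L6 have all their circles to the right.

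For 18 members the difference was under 0.2 in either direction and for 5 members (IFI35, SAMD9L, TRIM22, RSAD2 and OAS2) it was at least 1. The median absolute difference was 0.23 for the members and 0.16 for all genes. Standard errors of the members ran from 0.0876 (IFITM3) to 0.405 (TRIM22). By level, 23 members had a mean above 7.82, of which 2 rose and 0 fell. Of the 16 at or below it, 2 rose and 1 fell. RMA alone does not separate a dim value from background.

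**Figure D2:**
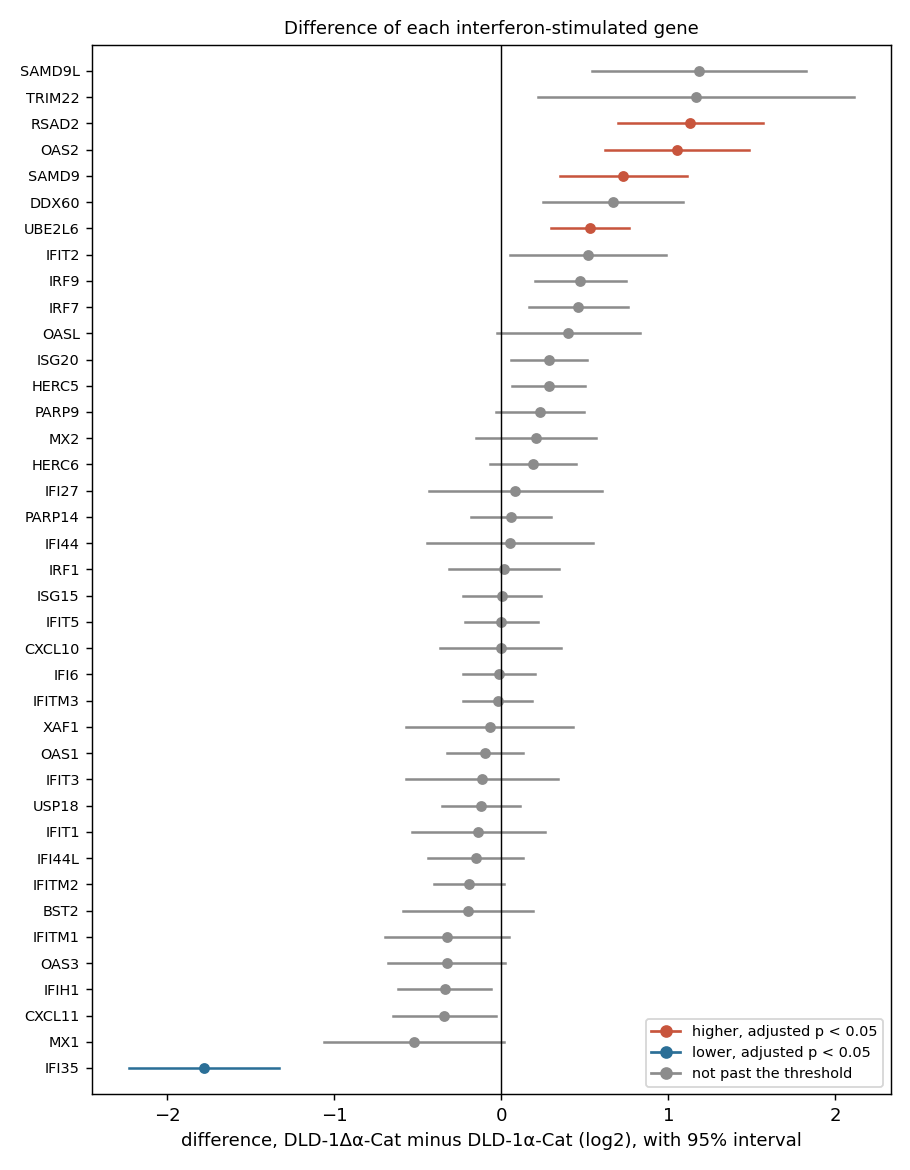
Points are the log2 differences of the 39 members, DLD-1Δα-Cat minus DLD-1α-Cat, with 95% intervals from limma (3 arrays per group), sorted by size. Red and blue mark members with an adjusted p under 0.05. Most intervals cross 0, IFI35 stands apart at -1.78, and SAMD9L and TRIM22 have the highest values with wide intervals.

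Transcription factors that carry or amplify the interferon signal are described first among the members. IRF9, the DNA-binding partner in the STAT complex, read 10.04, 10.19 and 10.05 in DLD-1Δα-Cat and 9.43, 9.70 and 9.73 in DLD-1α-Cat. The difference, 0.47 (SE 0.116), missed the threshold (limma adjusted p = 0.0621). IRF7, which drives interferon-α genes once phosphorylated, read 8.98, 9.16 and 9.13 against 8.40, 8.77 and 8.72, a difference of 0.46 (SE 0.127, limma adjusted p = 0.0861). The groups do not overlap for either gene. IRF1, an activator shared with interferon-γ signalling, differed by 0.015 with overlapping arrays (limma adjusted p = 0.962).

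IFI35, an interferon-induced protein that forms a complex with NMI, was the member that fell. It read 6.41, 6.23 and 6.60 on the DLD-1Δα-Cat arrays and 8.18, 7.84 and 8.56 on the DLD-1α-Cat arrays. The groups are well separated, with every DLD-1Δα-Cat array below 7 and below every DLD-1α-Cat array. The means were 6.41 ± 0.187 and 8.19 ± 0.360 (SD, n = 3 each), so IFI35 fell by 1.78 (SE 0.192, 95% interval -2.23 to -1.33, limma adjusted p = 0.00328), which is 3.43-fold on this scale. It is read by 1 probe set, and it passed in all 6 runs that left out 1 array. Its neighbours on chromosome 17, looked up after this value was seen, differed by -0.0078 (RPL27, a ribosomal protein gene) and by -0.012 (VAT1, a vesicle amine transport protein gene).

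The other IFI genes overlapped between the groups. IFI6, a mitochondrial and endoplasmic reticulum protein that limits cell death, differed by -0.015 (95% interval -0.23 to 0.20). IFI27 differed by 0.085, IFI44 by 0.054 and IFI44L by -0.15. Their limma adjusted p-values lay from 0.508 for IFI44L to 0.939 for IFI6. IFI44L read 2.64 to 3.04 over the 6 arrays, near the bottom of the scale, which starts at 1.95.

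RSAD2, or viperin, a radical SAM enzyme that makes a chain-terminating nucleotide, rose. It read 6.84, 6.47 and 6.54 in DLD-1Δα-Cat and 5.82, 5.15 and 5.48 in DLD-1α-Cat, with no overlap. All 6 values lie below the median level of all genes. The difference was 1.13 (SE 0.186, limma adjusted p = 0.0167), or 2.19-fold. Its second probe set was 0.69 higher (limma adjusted p = 0.0488 when every probe set was tested). CMPK2, which lies next to RSAD2 and is itself interferon-induced, differed by 0.14 (limma adjusted p = 0.689).

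OAS2 makes the oligoadenylates that switch on RNase L, and it was the OAS gene that rose, while the other 3 did not pass. OAS2 read 5.05, 5.49 and 5.59 against 4.43, 4.04 and 4.50, a difference of 1.05 (SE 0.183, limma adjusted p = 0.0204), or 2.07-fold. All 6 values lie below the median level of all genes, and the groups do not overlap. Its other 2 probe sets were lower in DLD-1Δα-Cat, by -0.14 (limma adjusted p = 0.557) and -0.33 (limma adjusted p = 0.199), and the mean of the 3 differed by 0.19 (limma adjusted p = 0.348), which ends the call. OAS1, a second synthetase of the same cluster on chromosome 12, differed by -0.095 (limma adjusted p = 0.611). OAS3, the largest enzyme of the family, read 10.94, 11.18 and 11.24 against 11.27, 11.34 and 11.73, a difference of -0.33 (limma adjusted p = 0.273) with no overlap. OASL, which lacks synthetase activity and binds the sensor RIG-I, differed by 0.40 (limma adjusted p = 0.270).

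SAMD9 and SAMD9L are paralogues that restrict poxviruses and lie side by side on chromosome 7. SAMD9 read 11.04, 11.25 and 10.95 in DLD-1Δα-Cat and 10.20, 10.68 and 10.16 in DLD-1α-Cat. The groups do not overlap, and SAMD9 rose by 0.73 (SE 0.163, limma adjusted p = 0.0472), or 1.66-fold. The limma adjusted p was 0.0624 when every probe set was tested and 0.0612 when each array was centred on its genes between the lower and upper quartile. SAMD9L read 5.13, 4.45 and 5.64 against 4.04, 3.77 and 3.87, the highest difference of any member, 1.18 (SE 0.273), which just missed the threshold (limma adjusted p = 0.0525). Its other 2 probe sets differed by 1.40 and 0.42, and none of its 3 passed when every probe set was tested (limma adjusted p = 0.0648 for the one used, 0.0749 and 0.295).

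The remaining antiviral effectors, TRIM22, MX1 and MX2, did not pass the test. TRIM22, a ubiquitin ligase active against several viruses, read 4.95, 5.95 and 5.10 against 3.56, 5.02 and 3.93, a difference of 1.17 (SE 0.405, limma adjusted p = 0.158). Its groups overlap, and replicate 2 was the highest array in each. MX1, a dynamin-like GTPase that traps viral nucleocapsids, read 6.86, 7.36 and 6.87 against 7.09, 7.88 and 7.68, a difference of -0.52 (limma adjusted p = 0.256). MX2, its neighbour on chromosome 21, differed by 0.21 (limma adjusted p = 0.475).

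**Figure D3:**
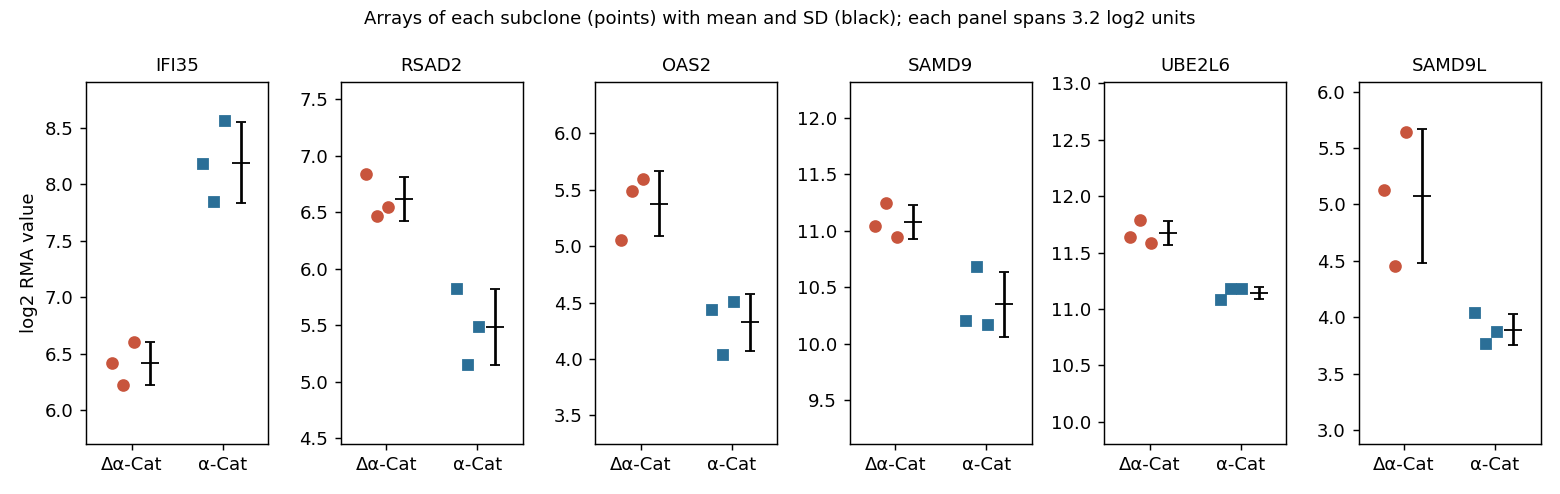
Log2 RMA values of the 5 called members and of SAMD9L on each array, with circles for DLD-1Δα-Cat, squares for DLD-1α-Cat, and the mean and SD of 3 arrays in black. Each panel spans the same number of log2 units. The groups do not overlap in any of the 6 panels, and IFI35 is the panel in which DLD-1Δα-Cat is lower.

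The ISG15 system attaches the ubiquitin-like protein ISG15 to other proteins. UBE2L6, its conjugating enzyme, read 11.64, 11.79 and 11.58 in DLD-1Δα-Cat and 11.08, 11.17 and 11.17 in DLD-1α-Cat. With no overlap, UBE2L6 rose by 0.53 (SE 0.0993, limma adjusted p = 0.0263), or 1.44-fold. ISG15 itself read 11.66, 11.51 and 11.54 against 11.63, 11.46 and 11.61, a difference of 0.0046 with a 95% interval of -0.23 to 0.24 (limma adjusted p = 0.985). HERC5, the main ligase for ISG15, was 0.28 higher with no overlap and did not pass (limma adjusted p = 0.143). HERC6, a related ligase, differed by 0.19 (limma adjusted p = 0.374) and USP18, the protease that removes ISG15, by -0.12 (limma adjusted p = 0.528).

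IFIT proteins bind viral RNA and block its translation, and their genes form a cluster on chromosome 10. None of the 4 passed limma's test, and 1 of them, IFIT2, had an unadjusted p under 0.05. IFIT2 read 9.96, 10.22 and 9.65 against 9.26, 9.79 and 9.23, a difference of 0.52 (SE 0.199, limma adjusted p = 0.196). IFIT1 read 8.06, 7.85 and 7.55 against 7.95, 8.20 and 7.74, a difference of -0.14 (limma adjusted p = 0.673). IFIT3 read 9.25, 9.48 and 8.77 against 9.43, 9.34 and 9.08, a difference of -0.11 (limma adjusted p = 0.768). Replicate 3 was the lowest array in each group for these 3 genes. IFIT5 differed by -0.0010, with a 95% interval of -0.22 to 0.22.

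Membrane restriction factors, which hold back viral entry and release, all had differences below 0, but IFITM3 was at 0.0066 after quantile normalization, and 0 of the 4 passed limma's test, also at an unadjusted p under 0.05. IFITM2 read 13.90, 13.84 and 13.96 against 14.09, 14.09 and 14.10, a difference of -0.19 (limma adjusted p = 0.273) with no overlap. IFITM1 differed by -0.33 (limma adjusted p = 0.298) and IFITM3 by -0.021 (limma adjusted p = 0.909). The IFITM genes are close copies of one another, and probe sets can read more than 1 of them, so their values are uncertain as to gene. BST2, or tetherin, which holds budding virus at the membrane, differed by -0.20 (limma adjusted p = 0.529).

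RNA sensing and decay had 3 members, and the groups did not overlap for any of them, though 0 passed limma's test and all 3 had an unadjusted p under 0.05. Over all genes, 27.2% did not overlap and 20.8% had an unadjusted p under 0.05, and these members did not share 1 direction. IFIH1, or MDA5, the sensor of long double-stranded RNA, read 10.49, 10.47 and 10.37 against 10.94, 10.82 and 10.58, a difference of -0.34 (SE 0.119, limma adjusted p = 0.163). DDX60, a helicase that assists sensing, read 7.91, 7.94 and 8.27 against 7.05, 7.67 and 7.39, a difference of 0.67 (SE 0.179, limma adjusted p = 0.0806). ISG20, an RNA exonuclease, was 0.29 higher (limma adjusted p = 0.154).

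The last members include nuclear and secreted proteins. PARP9, which works with the ligase DTX3L, differed by 0.23 with no overlap (limma adjusted p = 0.302), and PARP14, an ADP-ribosyltransferase, by 0.056 (limma adjusted p = 0.785). The second probe set of PARP9 differed by -0.19 (limma adjusted p = 0.486 when every probe set was tested). XAF1, a promoter of apoptosis, differed by -0.069 (limma adjusted p = 0.877). The chemokines CXCL10 and CXCL11, which attract T cells through CXCR3, had means of 3.65 and 3.62 over the 6 arrays, near the bottom of the scale. They differed by -0.0025 and -0.34 (limma adjusted p = 0.995 and 0.202), with overlapping arrays.

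Arrays with the same replicate number deviated together, so the number was also used as a block. This pairing was read from these same values, and the labels do not state it. With the replicate block 8 members rose and 1 fell, and 7.39% of all genes were called. The added members were SAMD9L (limma adjusted p = 0.0492), TRIM22 (0.0135), IRF7 (0.0488) and IFIT2 (0.0499), while IFI35, RSAD2, OAS2, SAMD9 and UBE2L6 passed in both fits. IRF9 stayed above the threshold with the block (limma adjusted p = 0.0566), though it passed in other fits that are given below. Within pairs, 23 members (59.0%) differed in 1 direction in all 3 pairs, against 51.2% of all genes. Of these, 16 (41.0%) were higher in DLD-1Δα-Cat, against 24.7% of all genes, and 7 (17.9%) were lower, against 26.5%. The mean deviation of IFIT1, IFIT2 and IFIT3 from their group means was 0.11, 0.21 and -0.32 on the DLD-1Δα-Cat arrays and -0.0098, 0.22 and -0.21 on the DLD-1α-Cat arrays.

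**Figure D4:**
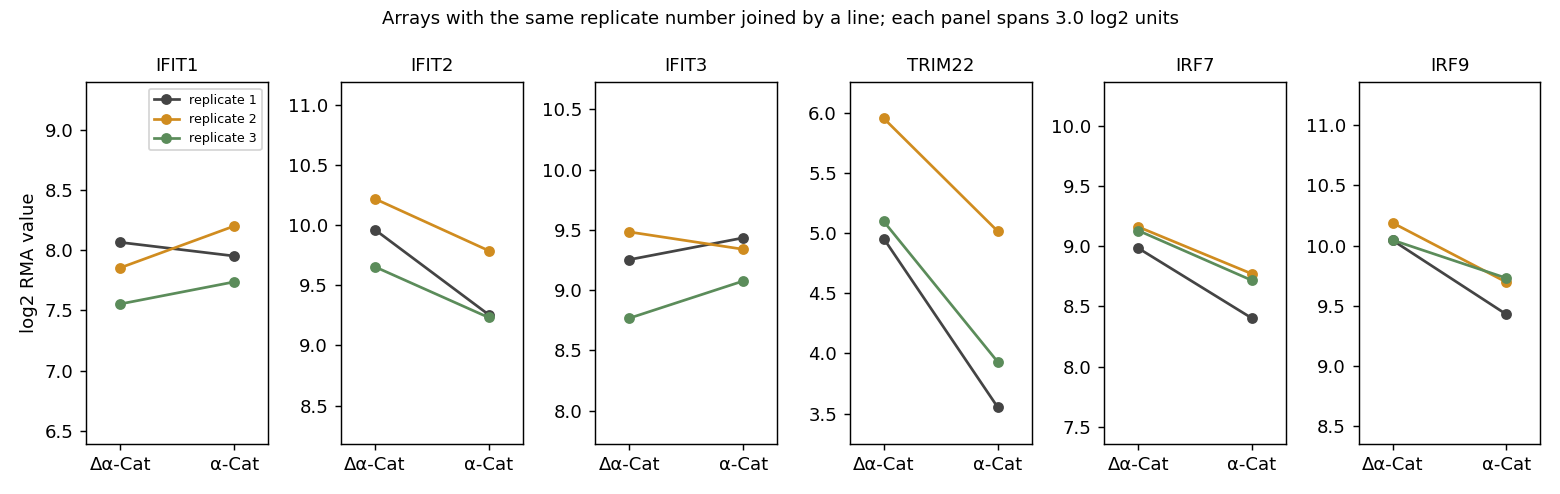
Log2 RMA values of 6 members, with DLD-1Δα-Cat on the left and DLD-1α-Cat on the right of each panel and a line joining arrays of 1 replicate number. Each panel spans the same number of log2 units. TRIM22, IRF7, IRF9 and IFIT2 fall from left to right in all 3 pairs, while IFIT1 and IFIT3 do not keep 1 direction.

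The calls rest on few arrays. Leaving out 1 array at a time gave 1 member higher without DLD-1Δα-Cat replicate 1 (OAS2) and 2 without replicate 2 (RSAD2 and SAMD9L). Without DLD-1α-Cat replicate 1 there were 2 (OAS2 and RSAD2), and without its replicate 2 there were 6. There were 0 by limma without DLD-1Δα-Cat replicate 3 (12 at an unadjusted p under 0.05) and 0 without DLD-1α-Cat replicate 3 (10 at an unadjusted p under 0.05). IFI35 fell in all 6 of these runs. RSAD2 and OAS2 each passed in 3 of them, and SAMD9 and UBE2L6 each in 1. All genes gave 760 higher and 331 lower with every array kept. Calls over all genes were 357 higher and 136 lower without DLD-1Δα-Cat replicate 3. They were 337 higher and 116 lower without DLD-1α-Cat replicate 3. Calls thus fell over all genes as well, though all genes kept some higher calls and the members kept 0. The log2 difference between the 3′ and 5′ β-actin control probe sets, a measure of RNA integrity and labelling, was 5.07 to 5.38 in DLD-1Δα-Cat and 4.36 to 4.89 in DLD-1α-Cat. The same difference for GAPDH was 0.69 to 0.82 and 0.51 to 0.79, which overlap. Because the β-actin ratio does not overlap between the groups, a fit with it cannot fully tell it apart from the subclone. With the β-actin ratio as a covariate, 0 members passed limma's test in either direction, 6 higher and 2 lower having an unadjusted p under 0.05. IFI35 was then at -1.19 (limma adjusted p = 0.0829) and RSAD2 at 1.25 (limma adjusted p = 0.313), while all genes gave 58 higher and 26 lower. The highest limma adjusted p of CTNNA1 over all 15 alternatives was 0.0667, so that gene did not pass in every fit either. The part of the β-actin ratio in the results was not tested further.

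The rest of the pathway was described by 4 lists, from ligands to induced genes, that hold none of the members. Of 86 listed genes 81 had a value, of which 5 rose and 2 fell (8.64%). All 7 belong to the further interferon-induced genes, where 34 of 35 had a value and 20.6% were called. Of all genes tested, 5.52% were called and 20.8% had an unadjusted p under 0.05. The lists were chosen with earlier results of these data known, so these shares are a description only. The ligand list had 18 of 21 genes with a value, none above a mean of 4.94, and 0 passed limma's test (2 at an unadjusted p under 0.05, median difference -0.10). Receptors, kinases and regulators gave 0 of 14 by limma (4 at an unadjusted p under 0.05, median 0.087). IFNAR1, a chain of the type I receptor, read 11.18, 11.55 and 11.31 against 10.81, 10.94 and 10.85, a difference of 0.48 (limma adjusted p = 0.0662, and 0.0475 with the replicate block). Nucleic acid sensors gave 0 of 15 by limma (3 at an unadjusted p under 0.05, median -0.044). TLR3, the endosomal sensor of double-stranded RNA, differed by 0.46 (limma adjusted p = 0.195).

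Guanylate-binding proteins, GTPases that attack intracellular pathogens and respond strongly to interferon-γ, supplied 3 of the 5 genes that rose. The list holds 5 of them, and the others, GBP1 and GBP4, differed by 0.24 and 0.053 and did not pass (limma adjusted p = 0.304 and 0.922). GBP2 read 8.11, 8.77 and 8.04 in DLD-1Δα-Cat and 5.37, 4.31 and 4.97 in DLD-1α-Cat, the largest difference of any gene in these lists. GBP2 rose by 3.43 (SE 0.298, limma adjusted p = 0.00129), or 10.7-fold, and passed in all 6 runs that left out an array. Its second probe set was 0.86 higher (limma adjusted p = 0.0333 when every probe set was tested). GBP3 rose by 0.67 (limma adjusted p = 0.0471) and GBP5 by 0.66 (limma adjusted p = 0.0422). When every probe set was tested, neither GBP3 nor GBP5 passed (limma adjusted p = 0.0638 and 0.0572). LAMP3, a lysosomal membrane protein, rose by 1.50 (SE 0.239, limma adjusted p = 0.0149), and TNFSF10, the death ligand TRAIL, by 0.69 (limma adjusted p = 0.0323).

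APOL1, an apolipoprotein that lyses trypanosomes, read 7.42, 7.58 and 7.55 in DLD-1Δα-Cat and 8.94, 9.26 and 8.96 in DLD-1α-Cat. With no overlap, APOL1 fell by 1.54 (SE 0.121, limma adjusted p = 0.000838), and it passed in all 6 runs that left out an array. PML, the scaffold of nuclear bodies, fell by 0.67 (limma adjusted p = 0.0227), and the mean of its 10 probe sets differed by -0.26 (limma adjusted p = 0.160), which ends that call. When every probe set was tested, the one used still passed (limma adjusted p = 0.0341). The next brightest of PML also passed, at -0.70 and -0.84 (limma adjusted p = 0.0406 and 0.0176), and the dimmer ones did not, at -0.41 to 0.54. Of these 7 genes, GBP2 and APOL1 kept the call in every run without an array, LAMP3 in 3, PML in 2 and the others in 1 each.

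**Figure D5:**
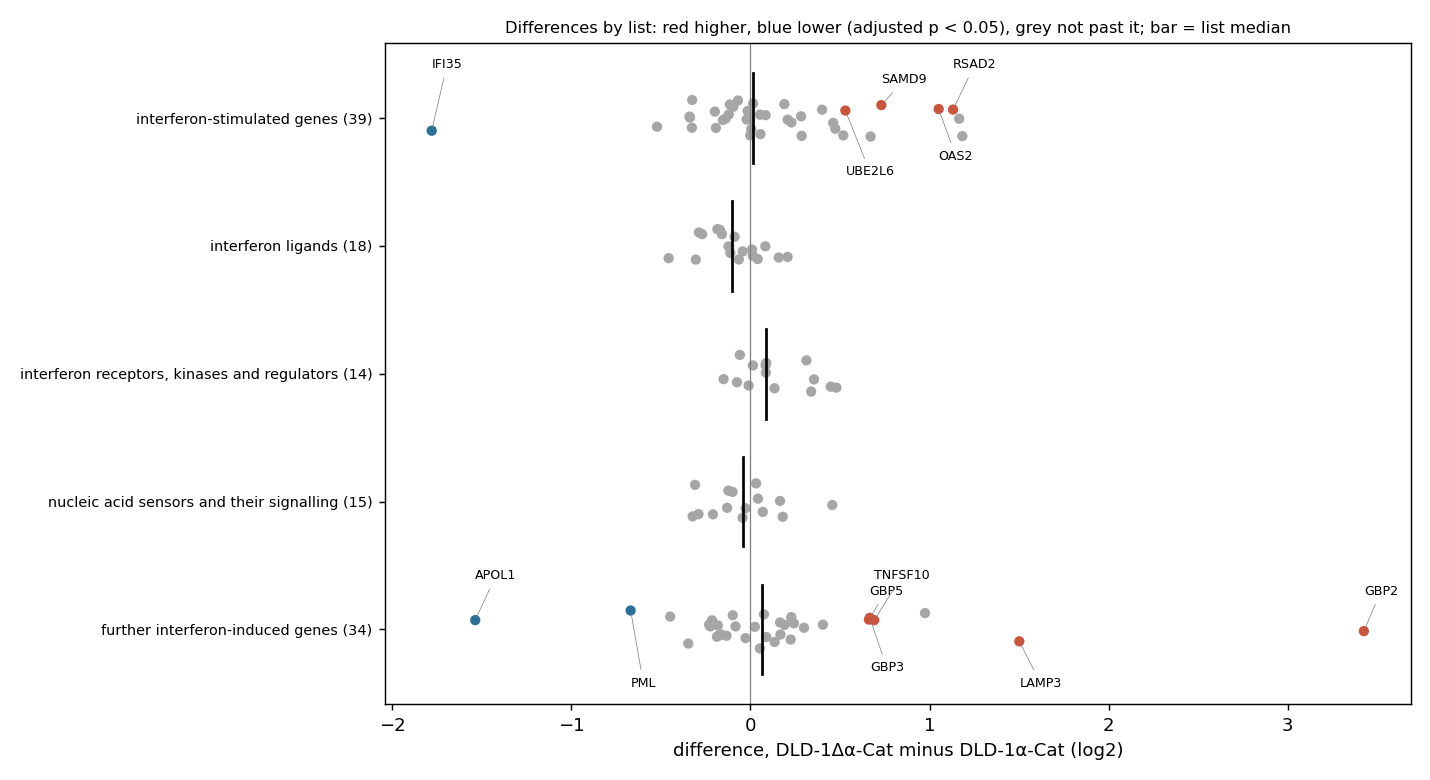
Each point is a gene, placed by its log2 difference, DLD-1Δα-Cat minus DLD-1α-Cat, with the members in the top row and the 4 pathway lists below (number of genes measured in brackets). The vertical position within a row has no meaning. Black bars are list medians, which lie between -0.10 and 0.087, red and blue points have an adjusted p under 0.05, and GBP2 at 3.43 lies farthest from 0.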

How the data were processed

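Expression was measured on 6 arrays. The authors deposited log2 values from RMA, and the submitters' processing notes name Affymetrix Expression Console, with versions not given in the sources used here. Because RMA makes the distributions of the arrays alike, a shift common to every transcript is lost. Array medians were 6.12 to 6.15. Arrays have no read depth, and 3 arrays per group limit the precision.

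Of 54675 probe sets, 62 controls were left out. The platform annotation gave 1 gene symbol to 41091, several to 1801, and lacks 11721, and 41037 matched a RefSeq gene by ID. For each of 19775 genes the probe set with the highest mean was kept, with no filter on dim genes. Of the 19 members with several probe sets, 12 had differences of the same sign in all of them. Groups come from the sample titles. A two-sided linear model with both groups (lmFit and eBayes of limma 3.58.1, under R 4.3.3) gave differences, standard errors and Benjamini-Hochberg adjusted p-values over all genes, with a threshold of 0.05, after being tested on simulated data. After subtracting group means, arrays that share a number in the titles correlated at 0.225, 0.376 and 0.122, each over 0.1, so these numbers were taken to pair the samples. Arrays of the 2 groups with different numbers correlated at -0.317 to 0.0666.

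The members and lists were chosen with earlier results of these data known. By the rule for names, the text gives every member with a value, CTNNA1, each pathway list's called genes and, where none passed, the most different gene above the median level. No ligand met that last condition. One gene of the rule is not reported here. CD14, GBP1, GBP4, APOL6, the genes beside members, and the ISG15 promoter were named after their values were seen. The alternatives were other summaries of probe sets, a filter on dim genes, 2 other scalings, 2 other variance models, the replicate block, the β-actin ratio as a covariate, and leaving out each array.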

Additional observations from a re-analysis of the deposited data

How the results depend on the processing

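Across 15 alternatives, 487 of 569 member results kept direction and side of the threshold, 24 lost a call, 18 gained one and 0 called members reversed. The other 40 are sign changes of 12 members that passed in neither fit, each with a reported difference of at most 0.12 in size. The members' median difference lay between -0.046, after centring, which moved the median of all genes to -0.092, and 0.085. All lay within 0.110 of the reported 0.015. That 0.110 is the spread, within groups, of the members' median level per array, and it is not the spread of a median difference. The count of members higher was 4, against 8 with the replicate block, which is a paired analysis, and 0 to 6 when an array was left out. It was 0 with the β-actin ratio as a covariate (limma, 6 at an unadjusted p under 0.05), where members lower also came to 0 (2 at an unadjusted p under 0.05), pathway genes to 0 higher and 1 lower, and all genes to 58 higher and 26 lower. Members lower was 1 in every run without an array, 2 with trend and robust estimation, and 0 without dim genes, because that filter removes IFI35 (23 members left, 2 of them lower at an unadjusted p under 0.05). The same filter removes RSAD2 and OAS2, and the 4 members higher after it were UBE2L6, SAMD9, IRF7 and IRF9. Pathway genes higher, 5 in the fit reported, were 3 with every probe set tested, 3 after quantile normalization, 3 after centring, and 1 to 5 without an array (1 without DLD-1Δα-Cat replicate 2 or 3, or DLD-1α-Cat replicate 3). Pathway genes lower were 2, against 1 when probe sets were averaged by gene and 1 to 2 without an array. All genes gave 760 higher and 331 lower, against 1150 and 564 with trend and robust estimation, 549 lower with array weights, and 323 to 854 higher and 116 to 348 lower without an array, and the lowest counts came without DLD-1Δα-Cat replicate 2 (323 higher) and without DLD-1α-Cat replicate 3 (116 lower). Of all calls 69.7% were in the higher direction, against 59.6% after quantile normalization, 57.4% after centring and 59.6% without dim genes. The block changed no other call of a member than those given with it. With all 6 arrays kept, IRF9 rose with probe sets averaged by gene, without dim genes, and after quantile normalization. It also rose with trend and robust estimation and with array weights. SAMD9L rose with probe sets averaged, after quantile normalization, and with trend and robust estimation. IRF7 rose without dim genes, DDX60 rose with array weights, and IFITM2 fell with trend and robust estimation. The cause of these shifts was not tested. With 3 arrays per group, differences the size of the standard errors (0.0876 to 0.405) were not detectable, and dim probe sets such as those of IFI44L and CXCL10 cannot be told from background.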

Other observations

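Neighbouring genes were looked up after the members' values had been seen. Among the members, 12 pairs lie next to each other in the order of the genes with a value. In all, 15 chromosomes hold a member. Of the pairs, 8 had differences of the same sign and 4 of opposite sign, some of them near 0 (IFIT5 at -0.0010, CXCL10 at -0.0025). The share over all neighbouring genes was not computed. The widest gap was between OAS3 at -0.33 and OAS2 at 1.05, followed by MX2 at 0.21 and MX1 at -0.52. The OAS2 value is that of its brightest probe set, and its other 2 probe sets differed by -0.14 and -0.33, so this gap depends on the probe set.

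CDK6, a cell-cycle kinase gene, lies next to SAMD9 and SAMD9L on chromosome 7. Its DLD-1Δα-Cat arrays averaged 10.93 ± 0.345 (SD, n = 3) and those of DLD-1α-Cat 9.37 ± 0.357 (SD, n = 3), with no overlap. CDK6 rose by 1.56 (SE 0.228, limma adjusted p = 0.0108). HEPACAM2, on the other side of the pair, differed by 0.045.

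IFI27L2, a paralogue next to IFI27 on chromosome 14, read 11.14, 10.86 and 10.95 against 10.34, 10.10 and 10.17. It rose by 0.78 (SE 0.117, limma adjusted p = 0.0122), while IFI27 differed by 0.085 with overlapping arrays.

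APOL6, a paralogue of APOL1 from the further interferon-induced genes, read 10.41, 10.94 and 11.07 against 9.39, 9.99 and 10.10. It was 0.97 higher (limma adjusted p = 0.0606, and 0.00875 with the replicate block), where APOL1 fell.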
